A study of Mus musculus with 6 samples.

Results

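The killer cell lectin-like receptors described here are the products of 7 mouse genes, Klrb1c, Klrb1f, Klrc1, Klrc2, Klrd1, Klrg1 and Klrk1, taken by symbol from a table of 38216 gene symbols. All 7 were in the table, and all 7 were among the 13311 genes that were tested after a low-value filter, which asked for 1 TPM or more in 2 or more libraries. TPM, or transcripts per 1000000, is an abundance corrected for transcript length, so that levels of different genes can be set beside each other. Klrc1 and Klrc2 met the filter only through their ACT libraries, since outside ACT each reached 1 TPM in 1 library.

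RNA came from CD4+ cells sorted from spleens of C57BL/6 mice at postnatal day 28, and every mouse carried the IL21-VFP reporter, which marks cells that transcribe the cytokine gene Il21. The animals were described as naive. Flow sorting gave 3 pools. ACT IL21 cells were VFP+ and ICOS+, ACT cells were VFP- and ICOS+, and N cells were negative for both, where ICOS is a costimulatory receptor raised on activated T cells. Each pool had 2 libraries. Nothing states that these came from separate animals, so p-values measure the spread between libraries, which may be technical. The labels name CD4, VFP and ICOS as the sort markers and no gate on NK1.1 or another killer cell receptor.

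Killer cell lectin-like receptors are C-type lectin-fold membrane proteins of natural killer (NK) cells, also carried by NKT cells, some gamma delta T cells and effector or memory T cells. Activating members signal through small adaptor proteins, while inhibitory members recruit phosphatases through tyrosine motifs in their own tails. Most of the genes lie together in the NK gene complex, where neighbouring genes encode both the receptors and several of their lectin-like ligands.

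All 7 genes are protein-coding and lie on chromosome 6 of GRCm38. In chromosomal order, Klrg1 runs from 122270596 to 122282882 on the minus strand, well before the rest. Klrb1c runs from 128778485 to 128789215 (minus strand) and Klrb1f from 129045901 to 129057464 (plus strand). Klrd1 runs from 129591782 to 129598775 (plus strand), followed on the minus strand by Klrk1 from 129610323 to 129623864, Klrc2 from 129647496 to 129660689 and Klrc1 from 129666015 to 129678973.

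Sequence shared between genes limits how reads can be assigned, and it differed among the members. Of the 50-base stretches in annotated Klrc1 transcripts, 38.6% also occurred in transcripts of other genes, mainly Klrc2 and Klrc3. The share was 16.3% for Klrc2, and 17% for Klrb1c, where the main partner was Gm44511, which overlaps Klrb1c exons on the same strand. Klrb1f, Klrd1, Klrg1 and Klrk1 shared no stretch of 50 bases with another annotated gene on either strand. Values of Klrc1, Klrc2 and Klrb1c are therefore the less certain ones, because the authors' counting divides such reads by estimation.

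Promoter windows were listed for 5 members, Klrb1c, Klrb1f, Klrc1, Klrc2 and Klrk1. The windows of 3 genes are printed because their genes ranked the pools in different ways. Klrk1 was high in ACT only, Klrb1c was highest in ACT and intermediate in ACT IL21, and Klrb1f stood at like levels in both ICOS+ pools. Each sequence holds the 250 bases before the annotated start, 5′ to 3′ on the gene's strand, from RefSeq on GRCm38.p6. The Klrb1c window lies inside the gene span given above, which comes from GENCODE M21 and starts further upstream. Capitals mark the letters TGTGGT or their reverse complement ACCACA, the core motif of RUNX factors.
Klrk1, chr6:129623865-129624114, minus strand: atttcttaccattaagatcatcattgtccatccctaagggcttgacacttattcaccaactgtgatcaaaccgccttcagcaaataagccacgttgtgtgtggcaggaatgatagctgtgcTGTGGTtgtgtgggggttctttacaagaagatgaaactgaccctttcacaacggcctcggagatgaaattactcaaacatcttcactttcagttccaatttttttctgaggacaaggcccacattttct
Klrb1c, chr6:128788642-128788891, minus strand: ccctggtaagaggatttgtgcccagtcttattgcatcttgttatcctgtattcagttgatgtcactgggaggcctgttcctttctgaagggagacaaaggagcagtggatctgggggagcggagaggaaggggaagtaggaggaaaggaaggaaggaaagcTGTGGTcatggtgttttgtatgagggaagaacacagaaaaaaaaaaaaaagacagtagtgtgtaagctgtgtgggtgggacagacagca
Klrb1f, chr6:129045651-129045900, plus strand: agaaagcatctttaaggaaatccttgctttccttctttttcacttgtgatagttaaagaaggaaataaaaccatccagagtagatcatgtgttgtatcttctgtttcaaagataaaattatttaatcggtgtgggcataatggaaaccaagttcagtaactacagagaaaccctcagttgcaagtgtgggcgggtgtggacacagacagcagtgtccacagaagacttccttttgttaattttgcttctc

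The RUNX core was found in 4 of the 5 genes with a window, and in 14% of all 32851 promoter windows of the same length. The match in Klrk1 began 129 bases before the start, that in Klrb1c 89 bases before it and that in Klrc1 87 bases before it. Klrc2 had 2 matches in each of its 2 overlapping windows, which reach into its gene span given above. Klrb1f had no match. The letters AGGTGT or ACACCT, a core motif of T-box factors, were in none of the 5 genes' windows and in 11.8% of all windows. Such matches describe letters in these windows and are not binding sites.

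Klrb1c, which encodes NK1.1, the activating receptor used to define NK cells and many NKT cells in C57BL/6 mice, was the most abundant of the 7 in ACT. It stood at 25.5 and 25.7 TPM in ACT IL21 libraries, 166 and 177 TPM in ACT libraries, and 2.56 and 2.38 TPM in N libraries. The 3 pools did not overlap, and ACT IL21 lay between the others. Mean Klrb1c was 69.5-fold higher in ACT than in N (log2 fold change 5.64 ± 0.22 SE, limma adjusted p = 3.26e-05). In ACT IL21 it was 10.4-fold higher than in N (2.94 ± 0.22, adjusted p = 0.000419) and stood at 14.9% of the ACT mean (-2.70 ± 0.22, adjusted p = 0.00282). The last call ended without ACT IL21 replicate 1 (-2.69, adjusted p = 0.0624) and without ACT IL21 replicate 2 (-2.70, adjusted p = 0.0861).

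Klrb1f, a paralog in the NKR-P1 family whose product binds lectin-like proteins encoded by Clec2 genes, was present in both ICOS+ pools. It stood at 30.4 and 23.4 TPM in ACT IL21, 25.9 and 42.8 TPM in ACT, and 1.21 and 0.74 TPM in N. The ranges of ACT IL21 and ACT overlapped, and both lay above N. Klrb1f rose in ACT IL21 against N (log2 fold change 3.82 ± 0.36 SE, limma adjusted p = 0.00138) and in ACT against N (4.13 ± 0.36, adjusted p = 0.000774). Without ACT IL21 replicate 1 the ACT IL21 value against N was 3.64 with an adjusted p of 0.0604. Between ACT IL21 and ACT its value was -0.31, with a 95% interval of -1.15 to 0.53 and an adjusted p of 0.741, and without ACT replicate 2 it was 0.04. Klrb1f was thus not shown to differ between the ICOS+ pools, though the interval includes a fall of more than 2-fold.

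**Figure D1:**
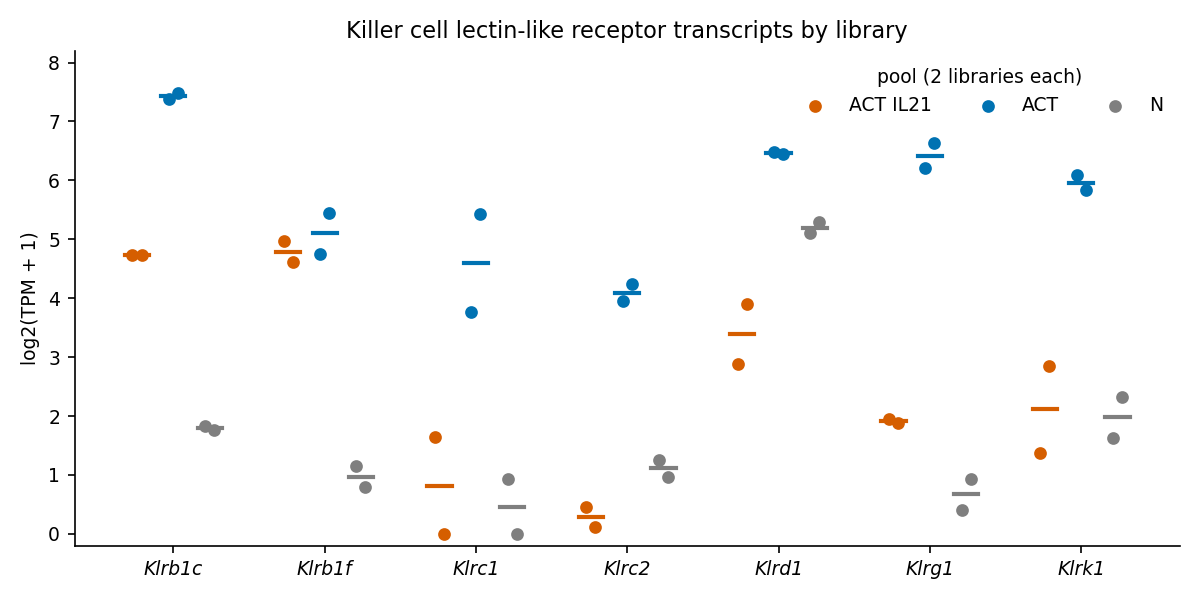
Levels of the 7 receptor transcripts as log2(TPM + 1) in each library, with points for libraries and bars for pool means (n = 2 per pool). ACT points are highest for every gene but Klrb1f, whose ACT IL21 and ACT points overlap, and Klrd1 is the gene with clear levels in N.

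The ratio of these paralogs set the ICOS+ pools apart. Klrb1c was 0.84 and 1.1 times Klrb1f in the ACT IL21 libraries, 6.42 and 4.14 times in ACT, and 2.12 and 3.22 times in N. The lowest ACT ratio was above the highest ratio in either other pool. These ratios compare TPM levels and were not tested.

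Klrd1 encodes CD94, which pairs with NKG2 proteins into receptors for the nonclassical class I molecule Qa-1. It stood at 6.42 and 13.9 TPM in ACT IL21, 88.5 and 85.9 TPM in ACT, and 33.3 and 38 TPM in N, and was the only member above 4 TPM in N. ACT IL21 was lowest and ACT highest, and no pools overlapped. Klrd1 fell in ACT IL21 against ACT (log2 fold change -3.07 ± 0.32 SE, limma adjusted p = 0.0056) and against N (-1.80 ± 0.32, adjusted p = 0.0198). In ACT against N its value was 1.27 ± 0.32 with an adjusted p of 0.0679, a mean 2.45-fold higher.

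Several of these Klrd1 calls turned on single libraries. The fall against ACT ended without ACT replicate 1 (adjusted p = 0.0615), ACT replicate 2 (0.0521) or ACT IL21 replicate 1 (0.0624). The fall against N ended without N replicate 1 (0.147), N replicate 2 (0.21) or ACT IL21 replicate 1 (0.0938), and also with no filter on low values (0.0661) or no intensity trend (0.0669). The value against N in ACT passed when ACT IL21 replicate 1 (0.036) or 2 (0.0396) was left out, or when the 2 pools were fitted alone (0.0282).

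Klrc1 and Klrc2 encode NKG2A, the inhibitory partner of CD94, and NKG2C, an activating one. Klrc1 was at 2.12 TPM and listed at 0 in ACT IL21, at 12.6 and 42.1 TPM in ACT, and at 0.9 TPM and listed at 0 in N. Its ACT libraries stood above all others but differed from each other, as a ratio, more than the ACT libraries of any other member. Klrc1 rose in ACT against N (log2 fold change 4.13 ± 0.75 SE, limma adjusted p = 0.0187), while ACT IL21 against ACT was -3.78 ± 0.75 with an adjusted p of 0.0523.

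The rise of Klrc1 ended without N replicate 1 (adjusted p = 0.111), N replicate 2 (0.2) or ACT replicate 2 (0.0887). It also ended with a pseudocount of 0.1 (0.0933), no filter on low values (0.0764) or no intensity trend (0.0527). In ACT IL21 against ACT, Klrc1 passed with a filter of 5 TPM (0.0468) and with median-of-ratios scaling (0.0495).

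Klrc2 was at 0.38 and 0.09 TPM in ACT IL21, 14.4 and 17.9 TPM in ACT, and 1.38 and 0.96 TPM in N. The ACT libraries were high and close together, and the other pools were near or below 1 TPM. Klrc2 rose in ACT against N (log2 fold change 2.98 ± 0.43 SE, limma adjusted p = 0.00652) and fell in ACT IL21 against ACT (-3.80 ± 0.43, adjusted p = 0.00661). The rise ended without N replicate 1 (0.0739) or 2 (0.099). The fall ended without ACT replicate 1 (0.0513), ACT IL21 replicate 1 (0.0849) or ACT IL21 replicate 2 (0.12).

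The third gene of this group, Klrc3, was listed at 0 in every library but ACT replicate 2, where it was at 13.7 TPM. With Klrc1, Klrc2 and Klrc3 summed into 1 row, a step chosen after seeing the data because of their shared sequence, the sum was 2.5 and 0.09 TPM in ACT IL21, 27 and 73.6 TPM in ACT, and 2.28 and 0.96 TPM in N. The sum rose in ACT against N (4.17 ± 0.69, limma adjusted p = 0.0128) and fell in ACT IL21 against ACT (-4.55 ± 0.69, adjusted p = 0.0204). Klrc1 and Klrc2 had met the low-value filter only through ACT libraries, and Klrc3 had not met it. The sum therefore adds no support to their calls. Klrd1 exceeded Klrc1 and Klrc2 together in every library, by 3.92 and 13.8 TPM in ACT IL21, 61.5 and 26 TPM in ACT, and 31 and 37.1 TPM in N.

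Klrk1 encodes NKG2D, an activating receptor for stress-induced ligands such as the RAE-1, H60 and MULT1 proteins. It stood at 1.6 and 6.22 TPM in ACT IL21, 66.8 and 56.1 TPM in ACT, and 2.1 and 4 TPM in N. ACT stood alone, and the ranges of ACT IL21 and N overlapped. Klrk1 rose in ACT against N (log2 fold change 3.98 ± 0.52 SE, limma adjusted p = 0.00416) and fell in ACT IL21 against ACT (-3.85 ± 0.52, adjusted p = 0.0129), while ACT IL21 against N was 0.14 with a 95% interval of -1.07 to 1.34. Leaving out N replicate 1 ended the rise (adjusted p = 0.0704). The fall ended with any of the 6 libraries left out (adjusted p 0.0535 to 0.103, log2 fold changes -4.58 to -3.11) and with no filter on low values (0.0603).

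Klrg1, an inhibitory receptor for cadherins found on terminally differentiated effector cells, had the widest difference of the members. It stood at 2.86 and 2.7 TPM in ACT IL21, 72.8 and 98 TPM in ACT, and 0.33 and 0.91 TPM in N. ACT was far above the other pools, and ACT IL21 was above N. Klrg1 rose in ACT against N (log2 fold change 5.75 ± 0.38 SE, limma adjusted p = 0.00019), which placed it 11 from the top of 13311 fold changes, with Klrb1c at 12. It fell in ACT IL21 against ACT (-4.50 ± 0.38, adjusted p = 0.00286), 5 from the bottom. The fall ended without ACT IL21 replicate 1 (-4.53, adjusted p = 0.0624) or replicate 2 (-4.47, adjusted p = 0.0861). ACT IL21 against N was 1.25 ± 0.38 with an adjusted p of 0.122.

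In ACT, then, 6 of the 7 receptor genes rose against N by limma and 0 fell, where 4.15% of all genes tested rose, 1.43% fell and 5.58% passed in either direction. Klrd1 was the exception, and it too was higher in both ACT libraries. Klrc1 and Klrc2 are among the 6 but met the low-value filter only through ACT libraries, so their calls add no support. Without N replicate 1 the count was 3, namely Klrb1c, Klrb1f and Klrg1, and these passed in all 15 alternatives tried. ACT libraries did not overlap N libraries for any of the 7, as for 47.0% of all genes. The median log2 fold change of the 7 was 4.13, beside 0.02 over all genes.

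In ACT IL21 against N, 2 members rose, Klrb1c and Klrb1f, where 3.82% of all genes rose, and Klrd1 fell, where 1.26% fell and 5.09% passed in either direction. Without ACT IL21 replicate 1 the call left was that of Klrb1c. The pools did not overlap for 5 members, as for 51.4% of all genes. The 2 that overlapped were Klrc1 and Klrk1. The median of the 7 was 0.36, beside 0.10 over all genes. This comparison and that of ACT with N share the N libraries.

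In ACT IL21 against ACT, 5 members fell, Klrb1c, Klrc2, Klrd1, Klrg1 and Klrk1, and 0 rose, where 1.15% of all genes fell, 0.796% rose and 1.95% passed in either direction. Klrc1 was as far down without passing, and Klrb1f stood apart at -0.31. Klrc1 and Klrc2 met the low-value filter only through ACT libraries, so the call of Klrc2 and the fall of Klrc1 add no support. The pools did not overlap for 6 members, as for 41.8% of all genes, and the median of the 7 was -3.78, beside 0.08 over all genes. The count rested on both ACT IL21 libraries. Without replicate 1 no gene passed in limma, and without replicate 2 a single member did, Klrd1. It was 2 and 3 without ACT replicates 1 and 2. The fold changes of the 5 that fell stayed between -5.74 and -2.57 in every alternative.

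**Figure D2:**
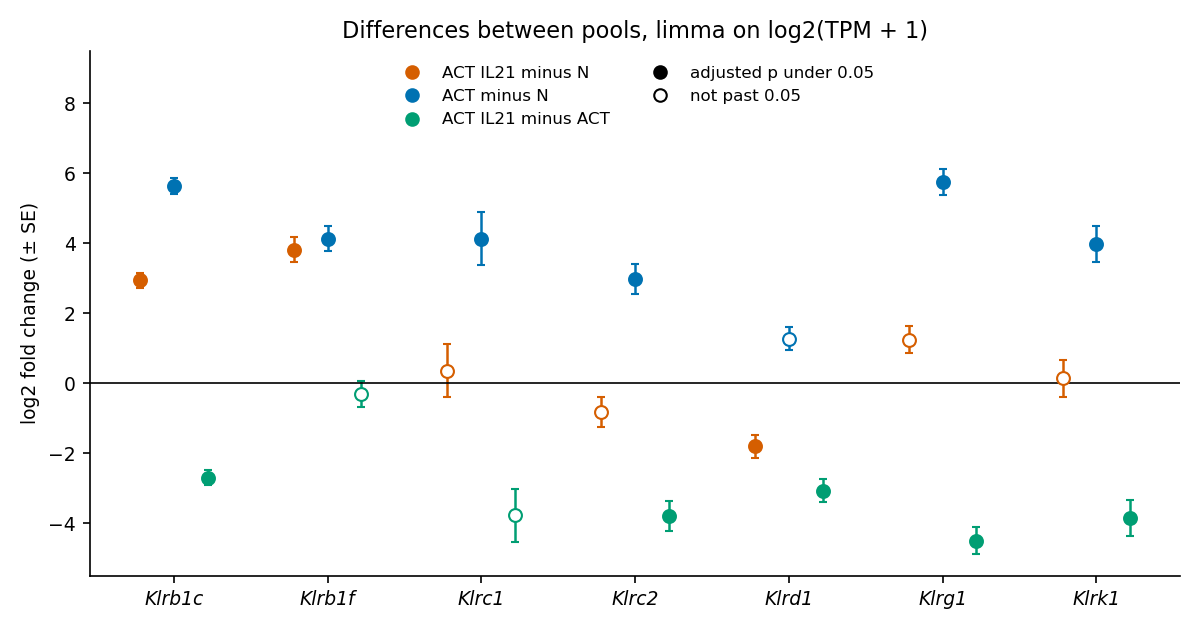
Log2 fold changes with their standard errors for the 7 receptor genes in 3 comparisons, from limma on log2(TPM + 1) over all 6 libraries. Filled points passed an adjusted p of 0.05. Klrb1f is alone in staying near 0 between ACT IL21 and ACT, at -0.31, while the others lie between -4.50 and -2.70.

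The family's total was highest in ACT and lowest in N. Klrd1 and Klrc2 did not share this order, since their ACT IL21 libraries lay below N. The 7 genes summed to 69.2 and 72 TPM in ACT IL21, 447 and 520 TPM in ACT, and 41.8 and 47 TPM in N. In bulk samples fewer cells carrying a transcript and less of it per cell cannot be told apart. The make-up of the sum differed between pools as well. Klrb1c and Klrb1f together made 80.7% and 68.2% of it in ACT IL21, 42.9% and 42.3% in ACT, and 9.03% and 6.64% in N. Klrd1 made 9.27% and 19.3% in ACT IL21, 19.8% and 16.5% in ACT, and 79.7% and 80.9% in N. The leading gene was Klrb1f in ACT IL21 replicate 1 and Klrb1c in replicate 2, Klrb1c in both ACT libraries, and Klrd1 in both N libraries.

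**Figure D3:**
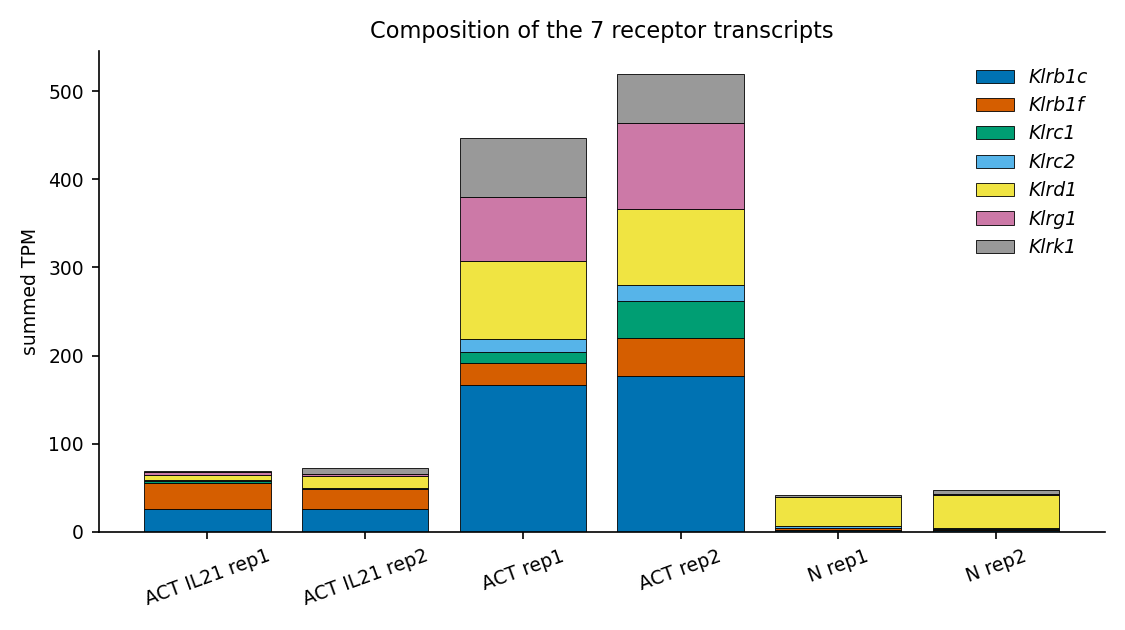
Stacked TPM of the 7 receptor genes in each library, from 0. ACT columns reach 447 and 520 TPM, against 69.2 and 72 in ACT IL21 and 41.8 and 47 in N, where Klrd1 fills most of the column.

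The adaptors of these receptors were uneven. Hcst, which encodes DAP10, the adaptor of NKG2D, stood at 124 and 137 TPM in ACT IL21, 196 and 154 TPM in ACT, and 109 and 79.9 TPM in N. It rose in ACT against N (0.89, limma adjusted p = 0.0453), a call that ended with any single library left out (adjusted p up to 0.315). Klrk1 was 0.0129 and 0.0454 times Hcst in ACT IL21, 0.341 and 0.364 times in ACT, and 0.0192 and 0.0501 times in N, on the TPM scale. Tyrobp, which encodes DAP12, was at 3.04 and 3.05 TPM in ACT IL21, 0.39 and 2.47 TPM in ACT, and listed at 0 and at 1.9 TPM in N. Fcer1g, the adaptor gene for NK1.1, was listed at 0 in ACT IL21 (both replicates), at 0.63 and 4.5 TPM in ACT, and at 0.38 TPM and 0 in N. Cd247, the zeta chain gene, is on the adaptor list but is also counted here among the CD4 T cell core genes. It fell in ACT against N (-0.75, limma adjusted p = 0.0221). That call was also lost with any single library left out, with values from -0.835 to -0.671.

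Below the receptors, 3 of 13 signalling genes tested rose in ACT IL21 against N, the kinase gene Fyn (0.84, limma adjusted p = 0.0172) and the adaptor genes Lcp2 (0.81, adjusted p = 0.0176) and Sh2d1a (1.09, adjusted p = 0.0317). In ACT against N 1 of 13 rose, Sh2d1a (1.01, adjusted p = 0.0418). Among the phosphatases that inhibitory receptors recruit, Ptpn11, which encodes SHP-2, was at 81.3 and 98.6 TPM in ACT IL21, 43.4 and 38.1 TPM in ACT, and 28.4 and 26 TPM in N. It rose in ACT IL21 against N (1.68, adjusted p = 0.00327) and against ACT (1.12, adjusted p = 0.0305), and the call against ACT ended with any library left out (up to 0.262). Ptpn6, which encodes SHP-1, was at 93.6 and 82.7 TPM in ACT IL21, 82.5 and 65 TPM in ACT, and 80 and 69.1 TPM in N. The calls of Fyn, Lcp2 and Sh2d1a in ACT IL21 ended without either N or either ACT IL21 library (up to 0.283), that of Sh2d1a in ACT with any library left out (up to 0.308), and that of Ptpn11 against N without N replicate 2 or either ACT IL21 library (up to 0.0744).

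Ligand genes were also in the table. Of the 7 tested none passed in any comparison by limma, against 1 higher at an unadjusted p under 0.05 in ACT IL21 against N, 0 in ACT against N and 1 lower in ACT IL21 against ACT. H2-D1, a classical class I gene and the most abundant on the list, was at 793 and 984 TPM in ACT IL21, 992 and 948 TPM in ACT, and 825 and 781 TPM in N. H2-T23, which encodes Qa-1, was at 181 and 175 TPM in ACT IL21, 233 and 216 TPM in ACT, and 201 and 164 TPM in N. Clec2d was at 391 and 363 TPM in ACT IL21, 345 and 267 TPM in ACT, and 267 and 270 TPM in N. Clec2g, a Clec2 gene on the ligand list, was listed at 0 in all 6 libraries. Clec2i, another Clec2 gene on the ligand list, was at 88.5 and 88.9 TPM in ACT IL21, 77.1 and 103.6 TPM in ACT, and 69 and 72.6 TPM in N. Ulbp1, which encodes the NKG2D ligand MULT1, was highest of the NKG2D ligand genes in ACT and N, and stood at 3.96 and 0.85 TPM in ACT IL21, 13.9 and 12.1 TPM in ACT, and 5.76 and 5.2 TPM in N, with -2.21 in ACT IL21 against ACT (adjusted p = 0.0816).

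Of 21 further killer lectin-like and related genes in the table, 9 were tested. The lectin-like genes Cd69 and Cd72 reached 153 and 25.3 TPM at most, and Klrc3 13.7 TPM, while no other gene of the list was above 7.91 TPM. Klra9 and Klre1 passed as higher in ACT against N and lower in ACT IL21 against ACT. Both met the low-value filter only through their ACT libraries, which selects for high ACT values, so their calls support nothing. Klra9, a Ly49 family gene, was listed at 0 in ACT IL21 (both replicates), at 6.75 and 5.07 TPM in ACT, and at 0.42 TPM and 0 in N. Klre1, an NK receptor gene of the same gene complex, was at 4.34 and 3.83 TPM in ACT and listed at 0 in the other 4 libraries. Because Ly49 genes resemble each other closely, the division of reads among them is uncertain.

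Neighbours of these genes were read beside them. Between Klrb1a and Klra1, from 128609227 to 130386874 on chromosome 6, the table held 64 of 92 annotated symbols. Besides the 6 members inside this span, 14 genes were tested. In ACT against N 2 of them passed, Klra9 and Klre1, where 5.58% of all genes passed in either direction. The ACT libraries alone had brought both through the filter, so their calls support nothing. Cd69, a lectin-like activation marker gene of the same span, was at 110 and 121 TPM in ACT IL21, 81.9 and 98.9 TPM in ACT, and 138 and 153 TPM in N. Its ACT value against N was -0.69 with an adjusted p of 0.054.

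Transcription factor genes of killer and innate-like lymphocytes moved with the receptors in part. Which cells carried these transcripts was not tested. Over all genes tested, 4.15% rose and 1.43% fell in ACT against N. In ACT IL21, 3.82% rose against N, while 1.15% fell and 0.796% rose against ACT. Of the 16 factor genes tested, 7 rose and 1 fell in ACT against N. Those that rose included Id2 (3.85, limma adjusted p = 3.93e-05), Bhlhe40 (4.86, adjusted p = 3.44e-05), Ikzf2 (2.98, adjusted p = 0.000398), Zbtb16 (4.97, adjusted p = 0.0017) and Tbx21 (4.39, adjusted p = 0.00178), and each of these passed with any single library left out. Tcf7, a factor of naive and follicular cells, was the 1 that fell (-1.45, adjusted p = 0.00166). In ACT IL21 against N, 5 of the 16 rose, Bhlhe40, Id2, Ikzf2, Tox and Tbx21, and 1 to 5 did so with a library left out. In ACT IL21 against ACT, 4 fell, Bhlhe40, Prdm1, Id2 (-2.07, adjusted p = 0.00324) and Zbtb16 (-2.98, adjusted p = 0.0333), and Tcf7 rose (1.38, adjusted p = 0.00661). Those of Id2 and Tcf7 ended without either ACT IL21 library, and for Tcf7 also without either ACT library (up to 0.145), and those of Zbtb16, Bhlhe40 and Prdm1 with any library left out (up to 0.216), so that 0 or 1 of the 4 stayed.

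Tbx21, which encodes T-bet, stood at 4.23 and 6.54 TPM in ACT IL21, 28.5 and 13.9 TPM in ACT, and was listed at 0 for both N samples. Eomes, the related factor gene of NK cells, was at 10.2 and 6.01 TPM in ACT IL21, 11.1 and 7.34 TPM in ACT, and 5.4 and 4.74 TPM in N, with 0.73 in ACT against N (adjusted p = 0.397). Runx3, which encodes a RUNX factor of cytotoxic lymphocytes, was at 23.5 and 23 TPM in ACT IL21, 40.8 and 30.4 TPM in ACT, and 22.1 and 18.1 TPM in N. Its ACT value against N was 0.79 (adjusted p = 0.128).

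Because these receptors mark other lymphocytes, marker lists were read beside them. The NK cell list summed to 14.5 to 22.3 TPM in ACT IL21, 38.4 to 46.2 TPM in ACT and 25.5 to 26.5 TPM in N over its 18 genes in the table. Of 11 tested, the integrin gene Itga2 rose in ACT against N, at 3.08 and 1.72 TPM in ACT IL21, 8.51 and 8.07 TPM in ACT, and 0.68 and 0.29 TPM in N. Klre1, described above with its filter, also passed, and Prf1 fell in ACT IL21 against N. The median log2 fold change of the 11 was 0.73 in ACT against N, beside 0.02 over all genes. The rise of Itga2 and the fall of Prf1 (adjusted p = 0.013 and 0.0363) ended without either library of either pool compared. Ncr1, which encodes the NK receptor NKp46, was listed at 0 in ACT IL21 (both replicates), at 0 and 1.06 TPM in ACT, and at 0.79 TPM and 0 in N. Klra4 and Klra8 were below 1 TPM in every library, and Cma1 and Clnk were listed at 0 in all 6. The sum of the list was highest in ACT, as the receptors were, but its genes were divided in ACT against N. At an unadjusted limma p under 0.05, 4 of the 11 rose there, Itga2, Irf8, Klre1 and Klra7, and 2 fell, Fcgr3 and Adamts14. In ACT IL21 against ACT, 0 rose and 5 fell at that p, Itga2, Klre1, Klra7, Gzma and Prf1. The median of the 11 was then -1.15, beside 0.08 over all genes. Klre1 and Klra7 met the low-value filter only through ACT libraries, so their changes add no support. No share over all genes is given at an unadjusted p. Prf1 did not reach that p in ACT against N, at 0.92 and 5.76 TPM in ACT and 7.27 and 7.93 TPM in N. Fcgr3 was at 0 and 0.48 TPM in ACT and 4.51 and 2.91 TPM in N. Adamts14 was listed at 0 in ACT and at 3.48 and 2 TPM in N. The part of NK cells in the receptor levels was not tested.

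NKT cell markers were high where the receptors were. Their list summed to 611 to 724 TPM in ACT IL21, 2750 to 3850 TPM in ACT and 113 to 121 TPM in N. All 14 tested rose in ACT against N, 12 or 13 with any single library left out. In ACT IL21 8 rose against N and 9 fell against ACT, which became 2 to 8 and 0 to 5 with a library left out. Nkg7, a cytotoxic granule gene, was at 164 and 109 TPM in ACT IL21, 539 and 399 TPM in ACT, and 8.9 and 8 TPM in N. Trav11d, a segment of the family used by invariant NKT receptors, was at 12.3 and 17 TPM in ACT IL21, 356 and 225 TPM in ACT, and 6.85 and 6.73 TPM in N. Zbtb16, which encodes PLZF, the factor of innate-like T cells, was at 5.91 and 1.7 TPM in ACT IL21, 40 and 27.3 TPM in ACT, and listed at 0 and at 0.18 TPM in N. Traj18 was listed at 0 in every library.

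Gamma chain genes and Maf of the gamma delta T cell list moved in the same direction. Of its 14 genes 10 were in the table, and Trdc, the delta constant gene, was not. That list summed to 182 to 202 TPM in ACT IL21, 710 to 1011 TPM in ACT and 11.9 to 14.8 TPM in N, and 5 of 7 tested rose in ACT against N, also with any library left out. In ACT IL21 4 rose against N and 4 fell against ACT, which became 2 to 4 and 0 to 2. The 5 that rose in ACT were Tcrg-C1, Tcrg-C2, Tcrg-C4, Tcrg-V4 and Maf, a factor that follicular helper cells also use. Sox13 and Cd163l1 did not pass in any comparison. The delta chain segment gene Trdv4 was listed at 0 in every library but ACT replicate 2, where it was at 2.32 TPM. Tcrg-C1, a gamma chain constant gene that NKT cells can also transcribe, was at 31.4 and 26.5 TPM in ACT IL21, 327 and 227 TPM in ACT, and 5.22 and 5.62 TPM in N. Sox13, a factor gene of gamma delta cells, reached at most 3.97 TPM, and the kinase gene Blk was listed at 0 in all 6 libraries. Cd8a was at most 0.36 TPM in any library, and Cd8b1 was at 9.8 and 3.41 TPM in ACT IL21, 5.59 and 7.41 TPM in ACT, and 26.7 and 18.7 TPM in N, which did not pass in any comparison. Of 3 B cell markers tested Cd22 rose in ACT IL21 against N (3.96, limma adjusted p = 0.00344), a call lost without either N or either ACT IL21 library (up to 0.0707). Of 3 myeloid markers Cst3 rose in ACT against N (1.01, adjusted p = 0.0338), lost in 5 of 6 fits with a library left out (up to 0.263). Of 12 CD4 T cell core genes, Cd28 and Cd4 rose in ACT IL21 against N, both lost without either N or either ACT IL21 library, and Cd247 fell in ACT. Cd4 and Cd247 rose in ACT IL21 against ACT. Cd4 was at 534 and 567 TPM in ACT IL21, 268 and 236 TPM in ACT, and 358 and 316 TPM in N, lowest in the pool where the receptors were highest. Its difference between ACT IL21 and ACT (1.13, adjusted p = 0.0103) was lost without either library of either of these pools (up to 0.156). The part of NKT, gamma delta or other cells in the receptor levels was not tested.

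**Figure D4:**
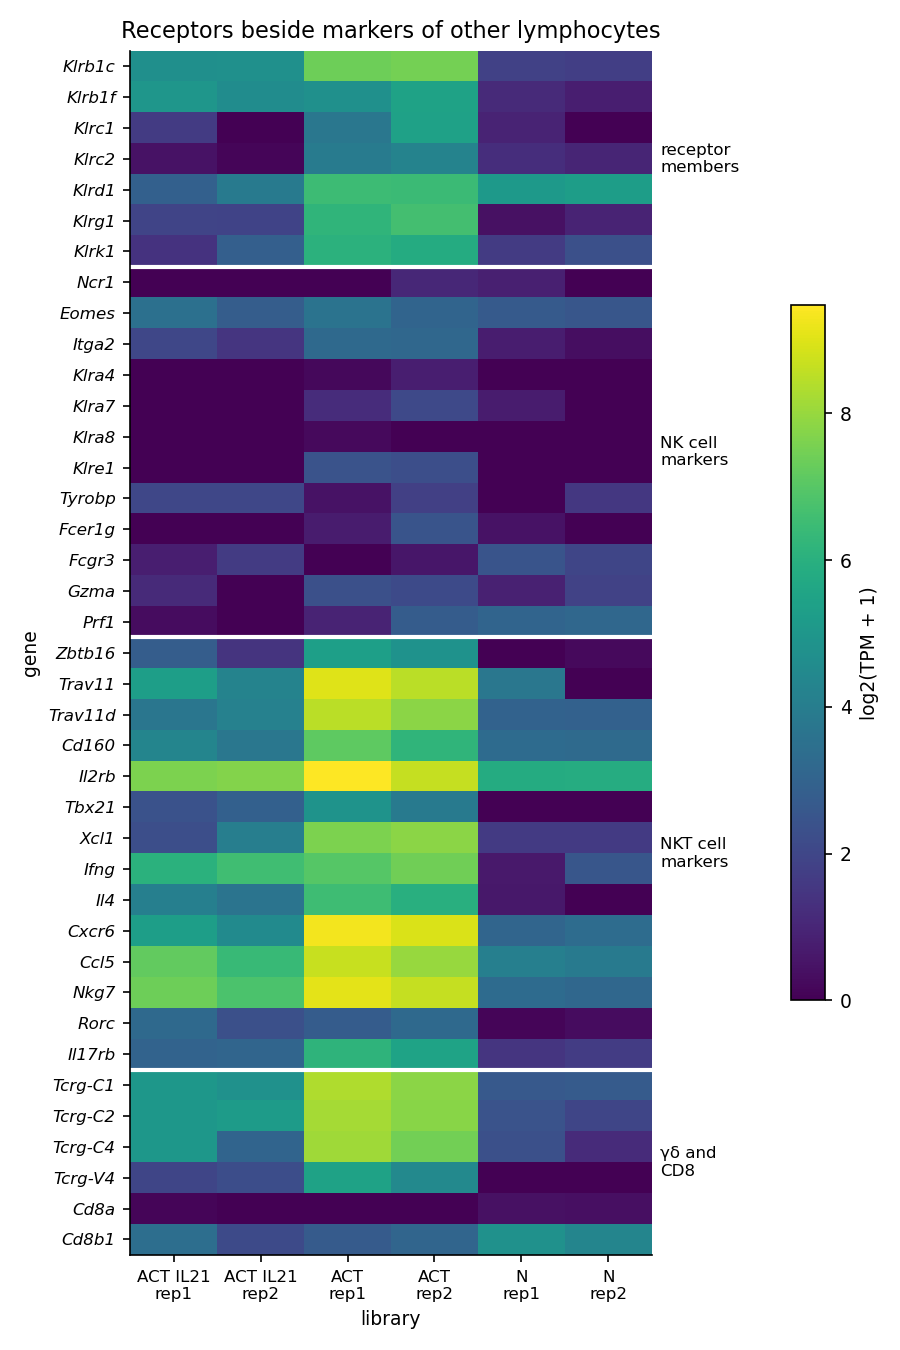
Log2(TPM + 1) of the 7 receptor genes beside markers of NK, NKT, gamma delta and CD8 T cells in each library, with 12 of the 18 NK markers shown. Klrb1c, Zbtb16, Trav11d and Tcrg-C1 are highest in ACT. Of the NK markers Itga2, Klre1, Klra7, Gzma and Fcer1g are also highest there, while Prf1 and Fcgr3 are highest in N. Klre1 and Klra7 met the low-value filter only through ACT libraries. Ncr1, Klra4 and Klra8 reach 1.06 TPM at most.

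Genes with the most similar course over the 6 libraries were taken from 8444 candidates with a mean of at least 5 TPM, by Pearson r of log2(TPM + 1), 2 for each member. The libraries fall into 3 pools, so r mostly follows the pool means and carries no p. Klrb1f was closest to Srgn (r = 0.999), which encodes serglycin, the proteoglycan of secretory granules, and to the signalling adaptor gene Dok1. Srgn was at 1254 and 1098 TPM in ACT IL21, 1153 and 1357 TPM in ACT, and 390.4 and 373 TPM in N. Klrb1c was closest to Tnfrsf1b (r = 0.995), a tumour necrosis factor receptor gene, and to the protease inhibitor gene Serpina3g.

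Klrc1 was closest to Sytl2 (r = 0.996), a gene of vesicle exocytosis, and Prim1, a DNA primase gene. Klrc2 was closest to the glucose transporter gene Slc2a3 (r = 0.995) and to Lyst (0.99), a lysosomal trafficking gene, which was at 24 and 26.1 TPM in ACT IL21, 114 and 110 TPM in ACT, and 38.6 and 37.2 TPM in N. Klrd1 was closest to Swap70 (0.989) and Gpr34, Klrg1 to Arl5a (0.995) and Serinc3, and Klrk1 to Eya2 (0.996) and Lztfl1. Among the members, r was highest for Klrg1 with Klrk1 (0.953) and lowest for Klrb1f with Klrd1 (-0.046).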

How the data were processed

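Polyadenylated RNA from 3 sorted CD4+ pools, 2 libraries each, was amplified as cDNA by a NuGEN Ovation kit, per the labels' protocols, and sequenced on an Illumina MiSeq. The deposited values are gene-level TPM, scaled by the authors to a fixed total per library. Trimmomatic, Bowtie, RSEM and GRCm38 are named, per the submitters' processing notes; for versions, annotation release, read length and strand, the value is not given in the sources used here. Depth is unknown, so no counting interval or floor is given, and a fixed total means that a rise in abundant transcripts lowers the rest.

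The table held 38355 entries, and 139 with a repeated symbol were summed. Libraries had 12095 to 12396 genes at 1 TPM or more, with Spearman correlations across genes of 0.941 to 0.971 within pools and 0.904 to 0.931 between them. Icos and Il21 followed the sort labels. The test was limma (version 3.58.1, under R version 4.3.3) applied to log2(TPM + 1), a scale that understates the change of low genes. All 6 libraries entered 1 model with a term for pool and an intensity trend (3 residual and 4.841 prior degrees of freedom). Tests were two-sided, with Benjamini-Hochberg adjustment over 13311 genes in each comparison and a threshold of 0.05. The procedure was tested on simulated data. Gene coordinates and shared sequence came from GENCODE M21 on GRCm38.

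The members and the gene lists were chosen with earlier results of these data known. All members were named, with, from each list, up to 5 passing genes of smallest p or else the most abundant gene, the defining markers of other cell types, and 2 genes of most similar course per member; not every gene this allows is printed. Klrc3, Cd69, Cd72, Klra7, Ptpn6, H2-T23, Clec2d, Clec2g, Ulbp1, Runx3, Sox13, Blk, Traj18, Cma1 and Clnk were added after their values were seen. So were Clec2i, Fcgr3, Adamts14, Gzma, Trdv4, Cd163l1 and Irf8. Mean TPM ratios are over 2 libraries.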

Additional observations from a re-analysis of the deposited data

How the results depend on the processing

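Each of the 7 receptor genes was refitted under 15 alternatives in each comparison. With 1 library left out, 93 of the member values kept direction and side of the threshold, 26 lost the call, 2 gained one and 5 changed sign. In these fits the lone library of a pool is assumed to vary like the others. With the other alternatives (pseudocount, filter, scaling, trend, pools fitted alone, replicate block) these numbers were 178, 6, 4 and 1. Over the fits with 1 library left out, the count of receptor genes passing ranged from 3 to 7 in ACT against N, 1 to 3 in ACT IL21 against N and 0 to 4 in ACT IL21 against ACT. Over all genes it ranged from 205 to 526 (743 with all libraries), 75 to 728 (677) and 0 to 81 (259). With no filter on low values the counts over all genes were 469, 410 and 124, with more genes tested, and with the 2 pools alone 417 in ACT against N and 92 in ACT IL21 against ACT, with fewer libraries.

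The values that changed sign were not past the threshold. Klrb1f in ACT IL21 against ACT ranged from -0.66 to 0.04132 with 1 library left out. In ACT IL21 against N, Klrc1 ranged from -0.46 to 1.18 and Klrk1 from -0.60 to 0.87. Klrk1 was -0.10 after quantile normalization, and Klrc1, Klrc2 and Klrc3 summed gave -0.38. The cause was not tested.

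Replicate numbers did not pair the libraries by any label. Deviations of same-numbered libraries from their pool means correlated at 0.21 between ACT and N, -0.004 between ACT IL21 and N, and 0.000782 between ACT IL21 and ACT. With the replicate block the counts over all genes were 784 in ACT against N, 732 in ACT IL21 against N and 284 in ACT IL21 against ACT, and the receptor counts 7, 3 and 5, with Klrd1 added in ACT against N (adjusted p = 0.0449). Unknown depth limits what can be said of values near 1 TPM.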
